A study of Homo sapiens with 2 samples.

Results

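The RNAs described here are 10 noncoding host genes of small nucleolar RNAs, chosen by symbol: GAS5, ZFAS1, SNHG1, SNHG5, SNHG6, SNHG7, SNHG8, SNHG12, SNHG15 and SNHG16. All 10 were among the 20981 rows of the deposited tables, and all 10 passed the filter of a mean of 1 CPM or more, which 12980 genes passed. CPM is a gene's count scaled to a common library total. They were measured by RNA sequencing in PANC-1, an established human line derived from pancreatic ductal carcinoma. Both groups were transfected. The control cells received a hairpin labelled shCtrl and the others one labelled shWBSCR22, directed at WBSCR22, the older symbol of BUD23, which methylates the RNA of the small ribosomal subunit. Whether either was a pool or a clone is not stated, and the labels name no further treatment. Each group held 1 library, so nothing below has a replicate check, no test between conditions was possible, and every value compares these libraries.

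Small nucleolar RNAs (snoRNAs) guide the chemical modification of ribosomal RNA. Those of the box C/D class guide ribose methylation and those of the box H/ACA class guide the conversion of uridine to pseudouridine. Most human snoRNAs lie in introns and are released when the host transcript is spliced. Many hosts start with a run of pyrimidines called a terminal oligopyrimidine (TOP) tract, which they share with messenger RNAs of ribosomal proteins and translation factors. The spliced exons of such noncoding hosts can enter ribosomes and are then removed by nonsense-mediated decay (NMD), which degrades RNA with an early stop codon while it is translated, so their level depends on both transcription and translation. A library of the kind made here reports the spliced host and not the snoRNA.

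By RefSeq, GAS5 holds 10 box C/D snoRNAs (SNORD genes) and 1 box H/ACA snoRNA (SNORA gene). SNHG1 holds 8 SNORD genes and 1 snoRNA without such a name. ZFAS1 and SNHG16 hold 3 SNORD genes each, SNHG5 holds 2, and SNHG6 holds SNORD87 alone. SNHG12 holds SNORD99 together with SNORA61, SNORA44 and SNORA16A. SNHG7 holds SNORA17A and SNORA17B, SNHG8 holds SNORA24, and SNHG15 holds SNORA9. None of the snoRNA rows of the deposited tables lay inside any of the 10 hosts, so the products of these genes were not measured.

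RefSeq start windows (GRCh38.p14) were matched for 8 of the 10 hosts; SNHG6 and SNHG15 were not matched. Each window below runs from 40 bases before the RefSeq start to 20 bases from it onward, in the direction of transcription. They are shown because the start sequence is the feature these genes are known to share. Capitals mark the letters TATA where they begin 40 to 20 bases before the start, and a C followed by at least 4 bases that are each C or T where it begins within 10 bases of the start.
SNHG12: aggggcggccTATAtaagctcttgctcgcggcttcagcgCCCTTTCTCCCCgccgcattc
SNHG7: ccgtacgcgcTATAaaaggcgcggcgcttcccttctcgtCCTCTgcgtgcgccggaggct
SNHG8: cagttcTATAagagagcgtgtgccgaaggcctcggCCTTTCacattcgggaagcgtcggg
SNHG1: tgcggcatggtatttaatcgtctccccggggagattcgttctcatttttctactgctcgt
GAS5: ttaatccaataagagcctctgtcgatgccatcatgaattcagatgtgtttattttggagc
ZFAS1: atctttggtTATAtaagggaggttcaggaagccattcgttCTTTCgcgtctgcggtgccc
SNHG5: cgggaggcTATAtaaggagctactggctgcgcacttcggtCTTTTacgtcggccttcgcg
SNHG16: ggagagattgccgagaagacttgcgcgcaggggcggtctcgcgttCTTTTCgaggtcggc

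The windows lie at chr1:28581854-28581913 on the minus strand for SNHG12, chr9:136728165-136728224 (minus) for SNHG7, chr4:118278722-118278781 (plus) for SNHG8 and chr11:62855866-62855925 (minus) for SNHG1. Those of the others lie at chr1:173869026-173869085 (minus) for GAS5, chr20:49278602-49278661 (plus) for ZFAS1, chr6:85678714-85678773 (minus) for SNHG5 and chr17:76557724-76557783 (plus) for SNHG16. The pyrimidine run was found in 6 of the 8 windows, against 31.4% of 35116 RefSeq start windows of the same kind. Counted from the start base, it begins at 0 in ZFAS1 and SNHG5, at -1 in SNHG7 and SNHG12 and at -5 in SNHG8. In SNHG16 it begins at 5 and the first base is G, so a run found by this search is not always a TOP start. TATA, which reads the same on both strands, was found in 5 of 8, against 6.17% of all, and both features together in 5 of 8, against 1.92%. The features were chosen with these 8 sequences in view, so the shares only describe the windows and test nothing. The longest run, of 12 bases, was that of SNHG12. The RefSeq start of GAS5 lies outside the span that the deposited table gives for the gene, and its window held neither feature. SNHG1 starts with a C, but its run there is shorter than the length searched. The SNHG1 window also holds tatttaa before the start, which the search for TATA does not match. The letters CACGTG, a core site of the MYC family that also reads the same on both strands, were in 1 of the 8 windows of 300 bases, that of SNHG7, against 7.26% of all. The hosts described below with lower counts were found both with the TATA and run features, as in SNHG7, SNHG8 and SNHG12, and without an exact match, as in SNHG1. ZFAS1 and SNHG5, whose windows also hold both features, had log2 ratios of shWBSCR22 over shCtrl of -0.03 and 0.06.

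Library facts that bear on these values were as follows. The counts summed to 16121638 in shCtrl and 15248099 in shWBSCR22. BUD23 had 3487 and 1892 counts, a log2 ratio of -0.72 after scaling (wider interval -1.01 to -0.43), in the direction its label names but short of 2-fold. Reference genes differed by a like amount, GAPDH with 36350 and 18166 counts (-0.83) and ACTB with 75414 and 42874 (-0.65). In bulk RNA, fewer cells with an RNA and less of it in each cell cannot be told apart. Low counts were lumped: the most frequent low count was 8 in shCtrl and 15 in shWBSCR22. Each log2 ratio below is therefore given with an exact 95% counting interval and with a wider one, made from counts divided by 8 and 15, and both cover counting error only. Of 7 ductal epithelial markers, KRT8, KRT18, KRT7 and MUC1 were measured, KRT19 had 0 counts in both libraries, and EPCAM and CDH1 had 15 and 2 counts in shCtrl and 0 in shWBSCR22. Of the leukocyte markers, MPO had 692 and 21 counts and LYZ 191 and 0, and the 4 such markers in the tables, of 6 listed, summed to 55.8 and 3.85 scaled CPM. The 5 fibroblast markers in the tables, of 6 listed, summed to 56.9 and 133 scaled CPM. Their part in the ratios below was not tested.

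The 3 most abundant hosts differed little between the libraries, and the hosts that were lower in shWBSCR22 were of middle or low level. ZFAS1, whose introns carry the SNORD12 family, was the most abundant per length. It had 113.7 FPKM in shCtrl and 105.0 in shWBSCR22, where FPKM is the authors' count scaled to gene length and library total. GAS5, known for its accumulation in cells that stop growing, followed with 62.2 and 54.0 FPKM, and SNHG5, host of the SNORD50 pair, with 36.2 and 35.6. These 3 held the same first 3 places in both libraries. SNHG8 had 32.8 and 18.2 FPKM and SNHG6 23.7 and 21.0, so their order was exchanged between the libraries. SNHG15 had 15.4 and 13.2. SNHG7 had 9.65 and 3.97, SNHG12 8.59 and 3.52, and SNHG1 7.08 and 3.69. SNHG16 was the lowest in shCtrl with 4.34 FPKM, but with 4.03 in shWBSCR22 it stood above SNHG7, SNHG1 and SNHG12 there.

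The levels per length depend on the length used. The length behind the deposited FPKM equalled the summed exons of all GENCODE release 29 transcripts, to within 1%, for 97.5% of the 7348 genes with at least 100 counts in each library. SNHG12 was an exception, with 3377 bases against 4266 in those exons. For GAS5 the length was 3631 bases over 29 transcripts, for SNHG16 it was 5362 and for SNHG8 923. Bases that only some transcripts of a host keep therefore count in its length, which lowers the level of hosts with many long variants. The ratio between libraries does not depend on this length.

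**Figure D1:**
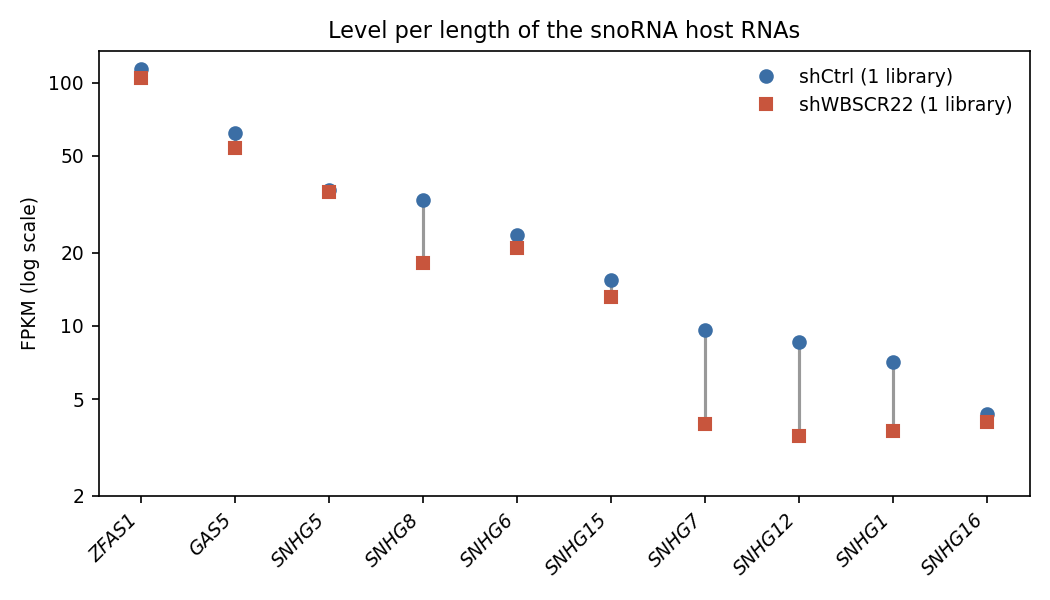
FPKM of each host RNA (log scale) in the shCtrl library (circles) and the shWBSCR22 library (squares), ordered by the level in shCtrl, with 1 library per group and no error bar. ZFAS1, GAS5 and SNHG5 lead in both libraries, and the distance between the symbols is widest for SNHG7 and SNHG12.

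SNHG12 and SNHG7 were the hosts called lower. The call needed a 2-fold difference, a log2 ratio of 1 or more in size, together with a counting interval that excluded 0. By this rule 2 of the 10 were lower and 0 higher, where 11.9% of all 12980 genes were lower and 12.2% higher. With the wider interval the same 2 hosts were called lower and 0 higher, where 2.98% of all genes were lower and 4.19% higher. Low-count genes make up much of the first share. A mean between 20 and 250 CPM holds all 10 hosts, a range set after their values were seen. Of its 4117 genes 2.74% were lower and 3.91% higher with either interval. SNHG12 (20.5 CPM) and SNHG7 (29.7 CPM) lie near its lower end, where ratios spread more. Among genes of similar level, defined below, the standard deviation was 0.68 for SNHG12 and 0.61 for SNHG7. For GAS5 and ZFAS1 it was 0.44 and 0.45. At similar level 3.57% lay below even the ratio of SNHG12 and 2.47% below that of SNHG7. The 2.74% is therefore not matched to the level of these hosts.

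SNHG12 (ENSG00000197989, chromosome 1, 28578538 to 28582983, minus strand, GRCh38) stood at 469 counts in shCtrl and at 182 in shWBSCR22. The shWBSCR22 library was 2.29-fold lower after scaling. As a log2 ratio this is -1.20 (counting interval -1.45 to -0.95, wider interval -2.23 to -0.29). Of 3611 genes at between 0.5 and 2 times its mean CPM, itself included, 3.57% had a lower log2 ratio. SNHG12 overlaps TRNAU1AP, a factor of selenocysteine transfer RNA on the other strand, by 8 bases. TRNAU1AP had 263 and 388 counts, the opposite direction, with a log2 ratio of 0.73 (wider interval -0.07 to 1.51).

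SNHG7 (ENSG00000233016, chromosome 9, 136721366 to 136728184, minus strand), host of the SNORA17 pair, had 678 counts in shCtrl and 264 in shWBSCR22. It was also 2.29-fold lower, or -1.19 in log2 (counting interval -1.41 to -0.99, wider interval -2.03 to -0.44). Of 3233 genes of similar level 2.47% had a lower ratio. SNHG7 shares 2685 bases of its span with FAM69B on the other strand, for which 151 and 76 counts gave a log2 ratio of -0.82 (wider interval -2.59 to 0.64). Whether counting used strand is not stated, so reads from SNHG7 and FAM69B may not have been told apart where their exons overlap.

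SNHG1 and SNHG8 were lower by less than the size rule. SNHG1 (chromosome 11, 62851988 to 62855914, minus strand), whose introns hold SNORD22 and SNORD25 to SNORD31, gave 430 counts in shCtrl and 212 in shWBSCR22. Its log2 ratio was -0.85 (counting interval -1.10 to -0.61), but the wider interval, -1.81 to 0.01, held 0. SNHG8 (chromosome 4, 118278709 to 118279823, plus strand), host of SNORA24, had 490 and 257 counts. Its log2 ratio was -0.76 (counting interval -0.99 to -0.54), and the wider interval of -1.63 to 0.03 also held 0. Of genes at a similar level 9.87% lay below SNHG1 and 11.1% below SNHG8, so these ratios are common among genes of their level. SLC3A2, the amino acid transporter subunit next to SNHG1 on the other strand, was level, with 13444 and 12048 counts (log2 ratio 0.01). With a size rule of 1.5-fold and the counting interval, SNHG1, SNHG7, SNHG8 and SNHG12 were lower and 0 hosts higher, where 21.1% of all genes were lower and 21.0% higher. Among the genes at 20 to 250 CPM these shares were 12.2% and 12.4%. With that size rule and the wider interval, SNHG7 and SNHG12 alone among the hosts were lower, where 5.59% of all genes and 10.0% of those at 20 to 250 CPM were.

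The abundant hosts stood close to 0. GAS5 (ENSG00000234741, chromosome 1, 173863900 to 173868882, minus strand) gave 3650 counts in shCtrl against 3000 in shWBSCR22. Its log2 ratio was -0.12, or 7.79% lower. The counting interval, -0.19 to -0.05, lay below 0 and the wider one, -0.36 to 0.13, held 0. With total-count scaling the ratio of GAS5 was -0.20. ZFAS1 (ENSG00000177410, chromosome 20, 49278178 to 49295738, plus strand) had 4123 and 3605 counts, which gave -0.03 (wider interval -0.25 to 0.20). SNHG5 (chromosome 6, 85660950 to 85678736, minus strand) had 1635 and 1522 counts, which gave 0.06 (-0.30 to 0.41) and, with total-count scaling, -0.02. For these 3 hosts the wider interval lay within a log2 ratio of 0.5 on either side of 0, so a 2-fold difference between these libraries lay outside it.

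ZFAS1 overlaps ZNFX1, a helicase gene on the other strand, by 249 bases. For ZNFX1, 481 and 239 counts gave a log2 ratio of -0.84 (wider interval -1.74 to -0.03), while ZFAS1 stayed near 0. On the other strand of GAS5, the overlapping gene ZBTB37 had 17 counts in shCtrl and 0 in shWBSCR22. GAS5-AS1, which overlaps GAS5, and MCMDC2, which overlaps SNHG6, had 0 counts in both libraries.

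The remaining 3 hosts were also near 0 but less precisely measured. SNHG15 (chromosome 7, 44983023 to 44986961, minus strand), host of SNORA9, had 910 and 737 counts, a ratio of -0.14 in log2 (wider interval -0.65 to 0.36). SNHG6 (chromosome 8, 66921684 to 66926398, minus strand) had 478 and 401 counts and -0.09 (-0.80 to 0.59). SNHG16 (chromosome 17, 76557766 to 76565348, plus strand), host of the SNORD1 family, had 376 and 331 counts and -0.02 (-0.82 to 0.74). SNHG6 and SNHG16 had fewer counts than SNHG8 in shCtrl, but more counts in shWBSCR22 than SNHG1, SNHG7, SNHG8 or SNHG12. AC015802.6, on the other strand of SNHG16, had 10 and 24 counts.

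**Figure D2:**
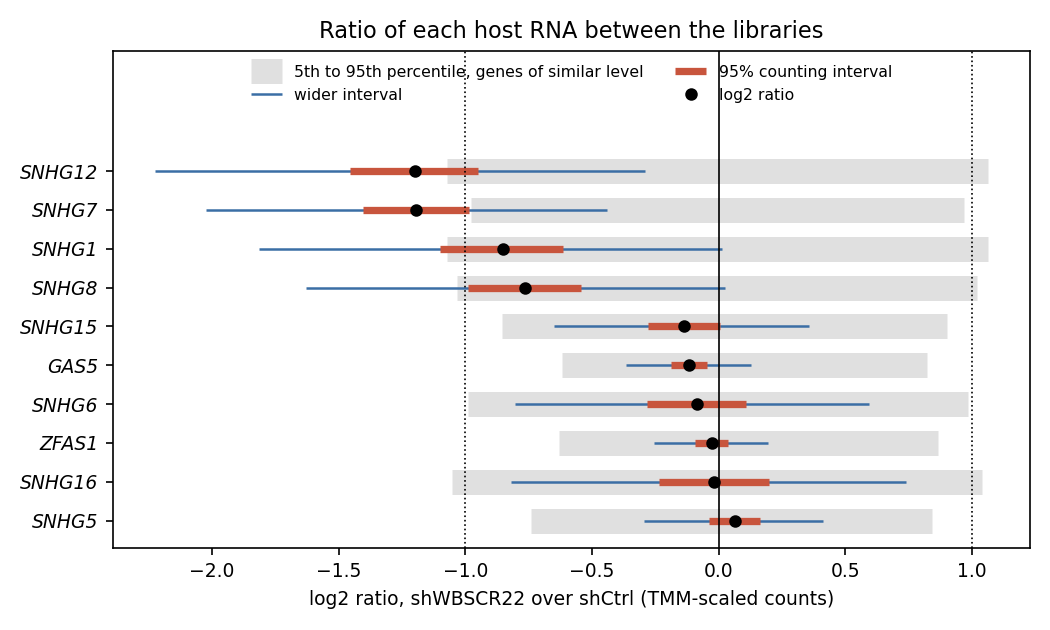
Log2 ratio of shWBSCR22 over shCtrl for each host RNA (points), with the 95% counting interval (thick lines), the wider interval (thin lines) and the 5th to 95th percentile of genes of similar level (grey bands). Dotted lines mark a log2 ratio of 1 in size. SNHG12 and SNHG7 lie below their grey bands, and both of their intervals exclude 0.

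In the order of ratios the widest step between neighbours was that from SNHG8 to SNHG15, of 0.63 on the log2 scale, and only there did the counting intervals of neighbours not overlap. No 2 neighbours in this order had wider intervals that did not overlap. Of the more distant pairs, the wider interval of SNHG7 lay below those of GAS5, ZFAS1 and SNHG5, and that of SNHG12 below that of ZFAS1. The 4 lowest hosts, a group made after their values were seen, summed to 2067 counts in shCtrl and 915 in shWBSCR22, and the other 6 to 11172 and 9596. Since ZFAS1 and GAS5 hold most of the counts, the sum over all 10 was 797 scaled CPM in shCtrl and 710 in shWBSCR22, a log2 ratio of sums of -0.17. Without ZFAS1 that value was -0.23, and without GAS5 it was -0.19.

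The median log2 ratio of the 10 hosts was -0.13, and that of all 12980 genes was -0.02. Of the hosts 9 of 10 lay below 0, where 50.9% of all genes did. The counting interval lay below 0 for 5 of them and above 0 for none, against 35.4% and 34.6% of all genes and 40.2% and 36.8% of those at 20 to 250 CPM. The wider interval lay below 0 for 2 and above 0 for none, against 8.20% and 10.8% of all genes. At 20 to 250 CPM these shares were 14.9% and 16.6%, so 2 of 10 below 0 is near the share of genes at that level. The lower hosts were of mixed snoRNA content, though most held box H/ACA snoRNAs, and no difference between classes was tested. SNHG7 and SNHG8 carry box H/ACA snoRNAs, SNHG12 carries both classes and SNHG1 carries box C/D snoRNAs. SNHG15, with a box H/ACA snoRNA, and the box C/D hosts ZFAS1, SNHG5, SNHG6 and SNHG16 were near 0. GAS5, with 10 box C/D snoRNAs and 1 box H/ACA snoRNA, had -0.12, with its counting interval below 0.

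**Figure D3:**
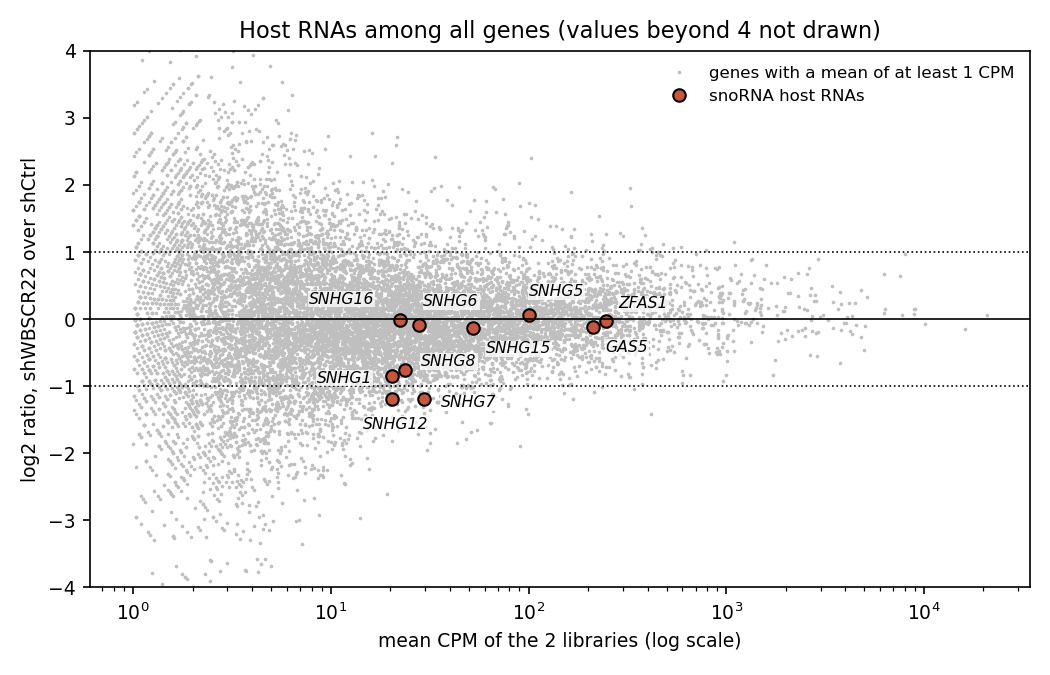
Log2 ratio of shWBSCR22 over shCtrl against mean CPM (log scale) for the 12980 genes kept (grey) and the 10 host RNAs (red), 1 library per group; genes beyond a log2 ratio of 4 in size are not drawn. Dotted lines mark a log2 ratio of 1 in size, and SNHG7 and SNHG12 lie just below the lower one.

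Other noncoding snoRNA hosts were mostly below 0 as well. Of 23 listed, 18 were in the tables and 14 passed the filter on low counts, with a median log2 ratio of -0.38, against -0.02 over all genes. Of these 10 lay below 0, but by the size rule 1 was higher, 0 were lower and 13 were neither. Among all genes 50.9% lay below 0, 12.2% were higher and 11.9% were lower. For EPB41L4A-AS1, 232 and 112 counts gave a log2 ratio of -0.88 (wider interval -2.27 to 0.31), and LRRC75A-AS1 had 268 and 134 counts and -0.83 (-2.09 to 0.26). SNHG3, host of a pair of SNORA73 genes, had 1493 and 832 counts and -0.68 (-1.14 to -0.24), and C6orf48, named after its value was seen, had 652 and 365 counts and -0.67 (-1.39 to -0.0027). These were the 2 of the list whose wider interval lay below 0, against 8.20% of all genes and 14.9% of those at 20 to 250 CPM. SNHG4 had -0.73 (-2.42 to 0.68). SNHG3 lies within the span of RCC1 on the same strand, so their reads may not have been told apart. RCC1 stands among the protein-coding hosts below, with 353 and 192 counts and a log2 ratio of -0.71. The one called higher, SNHG25, had 4 and 48 counts, and its wider interval held 0.

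Protein-coding snoRNA hosts had a median log2 ratio of -0.45 over 35 measured genes. Of these 0 were higher, 3 lower and 32 neither with either interval. By the size rule 11.9% of all genes were lower, and 2.98% once the wider interval was required. For 14 of the 35 hosts the wider interval lay below 0 and for 1 above it, against 8.20% and 10.8% of all genes. At 20 to 250 CPM these shares were 14.9% and 16.6%. Several of these hosts, such as HSPA8 (mean of 415 CPM) and EEF2 (443 CPM), lie above that range, where the interval is narrower, and others lie below it. The shares are therefore not matched for level. HSPA8, the constitutive cytosolic chaperone and host of the SNORD14 family, had 9894 and 3296 counts, or -1.42 in log2 (wider interval -1.63 to -1.21). EIF4G2, a relative of the initiation factor EIF4G that holds SNORD97, had 1490 and 613 counts and -1.11 (-1.64 to -0.62). RABGGTB, a prenyltransferase subunit that holds the SNORD45 family, had 310 and 67 counts and -2.04 (-3.86 to -0.64), and was named after its value was seen. TCP1, a chaperonin subunit, and NCL, nucleolin, had log2 ratios of -0.97 (-1.64 to -0.34) and -0.70 (-1.06 to -0.35), short of the size rule. TPT1, a growth-related protein that holds SNORA31, was the one with a wider interval above 0, with 5365 and 6182 counts and 0.37 (0.19 to 0.55).

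The proteins that bind and mature snoRNAs were below 0 throughout but mostly by little. All 19 listed were measured, with a median log2 ratio of -0.30 and 0 higher, 1 lower and 18 neither. Of all genes 50.9% lay below 0, and by the size rule 12.2% were higher and 11.9% lower. The one lower, NAF1, an assembly factor of H/ACA particles, had 28 and 8 counts, and 0 were called with the wider interval. The largest differences at 30 CPM or more were those of TCOF1, the nucleolar protein treacle, with 2730 and 1430 counts and -0.77 (wider interval -1.11 to -0.44), NHP2, an H/ACA core protein, with -0.67 (-1.34 to -0.05), and NOP56, a box C/D core protein, with -0.62 (-0.85 to -0.39). FBL, fibrillarin, the methyltransferase of box C/D particles, had 7183 and 4934 counts and -0.38 (-0.56 to -0.19). Beside these, NOP10, the smallest H/ACA protein, had 4225 and 3674 counts and -0.04 (-0.26 to 0.19). DKC1 and NOP56 stand in both this list and that of the protein-coding hosts. EEF1B2, EEF2, EIF4A2, RACK1 and TPT1 stand in both the protein-coding hosts and the TOP messenger RNAs described below, so those lists are not separate sets.

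NMD factors had a median log2 ratio of -0.23 over 21 measured genes, with 0 higher, 1 lower and 20 neither. By the same rule 12.2% of all genes were higher and 11.9% lower. UPF1, the central helicase of NMD, was the one lower, with 1576 and 688 counts (log2 ratio -1.03, wider interval -1.53 to -0.56). DHX34, a helicase that acts with UPF1, had -0.89 (-1.30 to -0.50), and GSPT1 and ETF1, the release factors of translation, had -0.78 (-1.17 to -0.40) and -0.44 (-0.78 to -0.11). The wider interval lay below 0 for 5 factors and above 0 for none, against 8.20% and 10.8% of all genes. At 20 to 250 CPM these shares were 14.9% and 16.6%. Messenger RNAs known as NMD targets had a median of 0.07 over 11 measured genes, with 1 higher (ATF3, 13 and 28 counts), 1 lower (GADD45A, 48 and 8 counts) and 0 in either direction with the wider interval. Among these CDKN1A, an inhibitor of cyclin-dependent kinases, had 1969 and 3246 counts and 0.89 (0.62 to 1.16), UPP1, uridine phosphorylase, had -0.43 (-0.71 to -0.17), SMG5, itself an NMD factor, -0.30 (-0.54 to -0.07), and CARS, a transfer RNA synthetase, -0.18 (-0.63 to 0.25).

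Messenger RNAs that share the TOP start went both ways. The 21 measured TOP messenger RNAs outside the ribosomal proteins had a median log2 ratio of -0.0047, with 0 called in either direction by the size rule. By that rule 12.2% of all genes were higher and 11.9% lower. HNRNPA1, an RNA-binding protein, had -0.65 (wider interval -0.92 to -0.38), PABPC1, the poly(A)-binding protein, had -0.60 (-0.88 to -0.33), EIF4B had -0.58 (-1.16 to -0.04) and EEF1B2 had -0.56 (-0.83 to -0.30). The wider interval lay below 0 for 7 of the 21 and above 0 for 4, which were TPT1 (0.37), NAP1L1 (0.33), EIF3K (0.26) and EEF1A1 (0.10). Among all genes it lay below 0 for 8.20% and above 0 for 10.8%. At 20 to 250 CPM these shares were 14.9% and 16.6%. Several of the list, such as EEF1A1 (mean of 1476 CPM) and TPT1 (369 CPM), lie above that range. There the interval is narrower and excludes 0 at smaller ratios, so these shares are not matched for level. The 78 measured cytosolic ribosomal proteins had a median of -0.04, with 0 higher and 1 lower, RPL30 (-1.17, -1.59 to -0.76). RPS13 and RPS18 had -0.69 (-0.88 to -0.51) and -0.54 (-0.61 to -0.48), and RPL22 had 0.60 (0.43 to 0.77). The wider interval lay below 0 for 26 ribosomal proteins and above 0 for 22. Of 19 regulators of TOP translation and of the kinase complex mTORC1, EIF4E (41 and 89 counts) and DEPTOR (19 and 41) were higher by the size rule, 0 were lower and 0 were called with the wider interval, and the median was -0.05. EIF4EBP2, a repressor of cap-dependent translation, had 585 and 929 counts and 0.83 (0.32 to 1.34). TSC1, which restrains mTORC1, had -0.46 (-1.12 to 0.17), the RNA-binding protein CNBP -0.36 (-0.60 to -0.13) and the mTOR subunit MLST8 -0.33 (-0.54 to -0.13). LARP1, which binds the TOP cap, had 440 and 353 counts and -0.15 (-0.91 to 0.57). These lists were set beside the hosts as descriptions, and no difference between lists was tested.

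**Figure D4:**
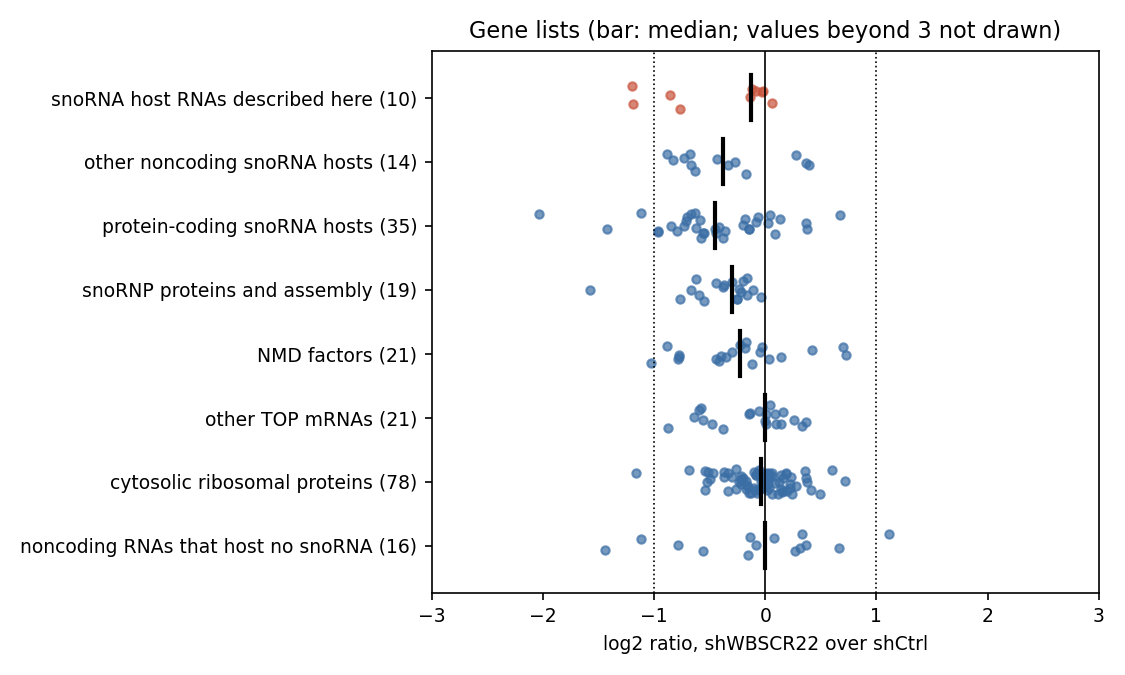
Log2 ratio of shWBSCR22 over shCtrl for each measured gene of 8 lists (points), with the number of genes in brackets and the median as a bar; genes beyond a log2 ratio of 3 in size are not drawn. The medians of the protein-coding and the other noncoding snoRNA hosts, -0.45 and -0.38, lie furthest below 0.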

How the data were processed

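Per the labels' protocols, total RNA of PANC-1 cells went into TruSeq RNA libraries from Illumina. HISAT2, StringTie, DESeq, bcl2fastq and FastQC, and the build GRCh38, are named in the submitters' processing notes. Which program counted, with which annotation release and strand setting, is not given here. The authors deposited raw counts per gene and FPKM per gene. The ratio of count to deposited FPKM showed that both tables hold the same counts, divided by a summed exon length.

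Counts were scaled by TMM (edgeR 4.0.16, R 4.3.3) over the genes at a mean of 1 CPM or more, and 0.5 counts were added to each library before the log2 ratio. The 95% counting interval is the exact conditional binomial (Clopper-Pearson) interval. The wider interval uses counts divided by 8 and 15. With 1 library in each group no spread between samples could be estimated, and no test was run. Reads are not independent molecules, so intervals cover counting error only. Code was tested on simulated data. GENCODE release 29 gave exon lengths, with 20951 of 20981 identifiers found and 20536 at the same coordinates, and RefSeq (GRCh38.p14) gave start windows and snoRNA names.

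The hosts, the lists and the wider interval were chosen with earlier results of these data known. Named genes were all hosts, rows overlapping them, BUD23, and per list up to 4 genes with the largest absolute log2 ratio at a mean of at least 30 CPM (5 CPM for noncoding lists). NOP10, TPT1, LARP1, RABGGTB, NAF1, ATF3, GADD45A, EIF4E, DEPTOR, JPX, DLEU2, THAP9-AS1, MIR31HG, SNHG25, C6orf48, NAP1L1, EIF3K, EEF1A1, GAPDH, ACTB, the marker genes and SLC3A2 were named after their values were seen. RCC1, EEF2, EIF4A2 and RACK1 were also named after that, for overlap in position or between lists. Not every row that the rule names is reported here. The sequence features were also chosen with the sequences in view. Ratios were recomputed with the size factors of DESeq2 (1.42.0), with upper-quartile and total-count scaling, with 2 counts added, from deposited FPKM with pseudocounts of 0.1 and 1, other filters on low counts, other intervals and a size rule of 1.5-fold.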

Additional observations from a re-analysis of the deposited data

How the results depend on the processing

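The 2 hosts called lower, SNHG7 and SNHG12, were 2 in number under each alternative scaling, count added, filter and FPKM setting and with the wider interval, with or without a size rule, and 4 with a size rule of 1.5-fold; 0 hosts were called higher under any alternative run. Their log2 ratios ranged from -1.28 to -1.10 for SNHG7 and from -1.28 to -1.08 for SNHG12. The FPKM settings hold the same counts and used the counting intervals of total-count scaling, so they are no separate check. The median of the hosts ranged from -0.21 to -0.11. SNHG5, at 0.06, ranged from -0.02 to 0.08. Of 80 values of single hosts under 8 alternatives, 74 stayed within the counting interval; the 6 others were GAS5 and ZFAS1 with total-count scaling or FPKM, down to -0.20 and -0.11. The number of all genes called, 3132, was 931 with the wider interval, 5467 with a size rule of 1.5-fold, 975 with FPKM and a pseudocount of 1, 1156 at a mean of at least 5 CPM and 6679 with every gene of at least 1 count. The median of the ribosomal proteins moved from -0.04 to -0.12 with total-count scaling, which lowered the median of all genes from -0.02 to -0.10. No paired analysis was possible because each group held 1 library. Depth limited SNHG1, SNHG6, SNHG7, SNHG8, SNHG12 and SNHG16 most, at 182 to 678 counts a library.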

Other observations

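Noncoding RNAs that host no snoRNA went both ways, with a median log2 ratio of -0.0026 over 16 measured genes. By the size rule 2 were higher (MALAT1, and MIR31HG with 0 and 36 counts) and 3 lower (JPX with 74 and 5 counts, THAP9-AS1 with 68 and 22, DLEU2 with 30 and 12). Among all genes 12.2% were higher and 11.9% lower. With the wider interval 1 of the 16 was higher and 0 lower, against 4.19% and 2.98% of all genes. MALAT1, a nuclear RNA of splicing speckles, was the one higher with either interval, with 343 counts in shCtrl and 660 in shWBSCR22 and a log2 ratio of 1.11 (wider interval 0.47 to 1.75). H19, an imprinted RNA, had 1387 and 1956 counts and 0.66 (0.32 to 1.00), and NEAT1, the scaffold of paraspeckles, had 1878 and 2159 counts and 0.37 (0.06 to 0.67). FTX, an RNA of the X inactivation centre, had 184 and 95 counts and -0.78 (-2.33 to 0.52). For 3 of the 16, namely MALAT1, H19 and NEAT1, the whole wider interval was above 0, and for none was it below. Among all genes it lay above 0 for 10.8% and below 0 for 8.20%. At 20 to 250 CPM these shares were 16.6% and 14.9%.

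The tables hold 22 rows named as snoRNAs or their Cajal body relatives, of which 11 had counts, at most 44 in a library, and 4 had a mean of at least 1 CPM. They summed to 207 counts in shCtrl and 77 in shWBSCR22. Of the 4, SNORD3B-1, a copy of the U3 snoRNA that acts in processing of the ribosomal RNA precursor, had 29 and 44 counts and SNORD3A had 25 and 17. SNORD3C, a further copy, had 38 and 0 counts, and SNORA3B had 16 and 16. The U3 copies are nearly identical, which makes their separate counts uncertain.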
